A study of Homo sapiens with 23 samples.

Results

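Regions bound by MCM2 phosphorylated at S139 (pMCM2) were compared between late S and middle S fractions of K562 cells. All regions of these 2 lists on chromosomes 1 to 22 and X were taken, 42953 in late S and 35438 in middle S, together 78391 of the 1741457 regions in the 21 lists of the series. Positions are on hg19, counted from 1. A region was called kept where it shared at least 1 bp with the other list, late-only where a late S region had no such overlap, and middle-only where a middle S region had none. The late S and the middle S sample were each 1 ChIP-seq library of wild-type K562, a chronic myelogenous leukemia line, separated by elutriation, which sorts cells by size and so enriches a cell cycle stage without making it pure. Both used the same antibody, cells were grown in DMEM with 10% FBS, and no drug treatment is named for either. With 1 library a side there was no replicate, no test between fractions was made, and every difference below is between these libraries.

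MCM2 is a subunit of the MCM hexamer, the motor of the replicative helicase. The hexamer is loaded on DNA as an inactive pair of rings in G1, before S phase, and many more hexamers are loaded than are used. Kinases, the Dbf4-dependent kinase Cdc7 foremost, phosphorylate MCM subunits when origins fire, and hexamers leave the chromatin as forks pass. Gene-rich, open chromatin is mostly copied early in S phase and gene-poor, closed chromatin late. Start sites of replication were mapped in the same series as nascent strands, short new DNA protected from λ-exonuclease by its RNA primer, at 3 stages of S phase in K562.

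The lists give a read count per region on a 200 bp grid, unscaled between libraries, and the sequencing depth of the libraries is unknown. Regions held 917926 reads over 49.9 Mb in late S and 1388387 reads over 75.5 Mb in middle S. Late S regions were narrower, with a median width of 1000 bp against 1800 bp in middle S. Among regions 200 bp wide the lowest count was 7 reads in late S and 11 in middle S, and at 1000 bp it was 8 reads in late S and 12 in middle S, so a region missing from a list may lie under its lowest count. From 200 to 2000 bp the lowest count in late S was 0.571 to 0.667 times that in middle S. At the kept regions the median read ratio of late to middle S was 0.615, within that range. Shares below carry exact 95% binomial intervals where given, which cover counting error only and treat regions as independent.

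Most regions of either list had no counterpart in the other. Of the late S regions, 14557 were kept from middle S (33.9%, 33.4 to 34.3%), and 28396 were late-only. Of the middle S regions, 14024 were kept in late S (39.6%, 39.1 to 40.1%), and 21414 were middle-only. Kept regions held 49.99% of the late S reads and 54.5% of the middle S reads. Late-only regions had a median width of 800 bp and middle-only regions one of 1600 bp, against 1000 bp for kept late S and 1800 bp for kept middle S regions. The median count was 12 reads in late-only and 23 in middle-only regions, against 19 in kept late S and 33 in kept middle S regions. Pooled per kb, the unshared classes were alike, at 15.1 reads in late-only and 15.0 in middle-only regions. So were the kept ones, at 23.4 in late S and 22.6 in middle S. These pooled values mix regions of unlike width. At equal width late S regions held fewer reads, a median of 9 against 14 in middle S at 200 bp. At 2000 bp the medians were 22 in late S and 26 in middle S.

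**Figure D1:**
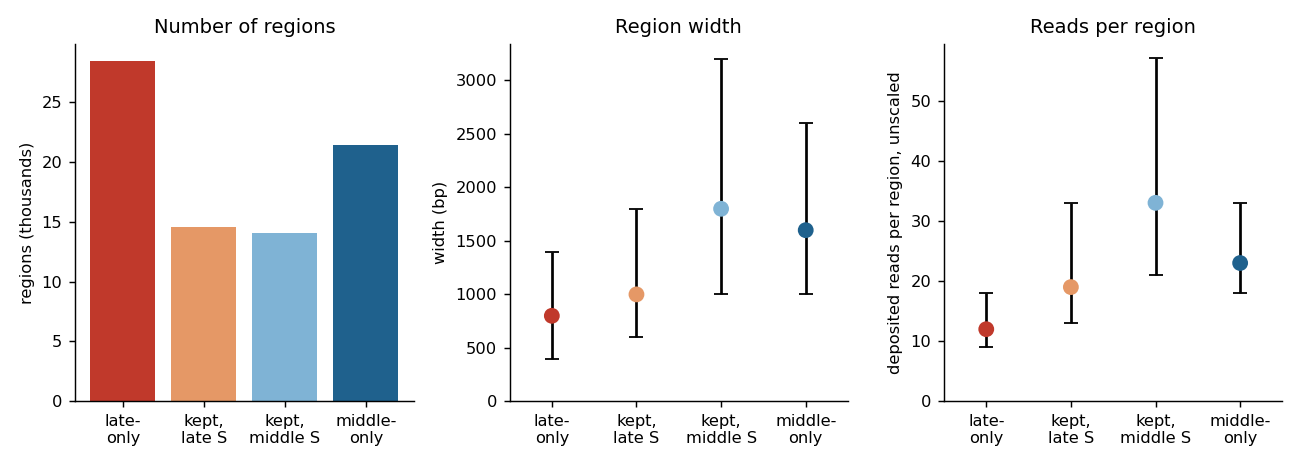
Number of regions (bars), region width in bp and deposited reads per region (points, median; lines, 25th to 75th percentile) for late-only, kept late S, kept middle S and middle-only regions. Late-only was the most numerous class with 28396 regions and had the lowest median width, 800 bp, and the lowest median count, 12 reads.

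Regions with more reads were shared more often. Among the 20% of late S regions with the fewest reads 15.5% were kept, and among the 20% with the most reads 60.4%. In the middle S list 27.8% of the lowest and 64.8% of the highest 20% were kept. Of the 100 regions with most reads, 90 in late S and 96 in middle S were kept. Unshared regions mostly lay over 1 kb from the other list. The nearest middle S region lay a median of 18.8 kb from a late-only region, and the nearest late S region a median of 13.2 kb from a middle-only region. Only 3.62% of late-only and 4.54% of middle-only regions came within 1 kb of the other list. At the other end, 12.4% of late-only and 4.83% of middle-only regions lay over 100 kb from it. Late-only regions were measured against 35438 middle S regions and middle-only regions against 42953 late S regions. The distances were not corrected for this unlike number.

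**Figure D2:**
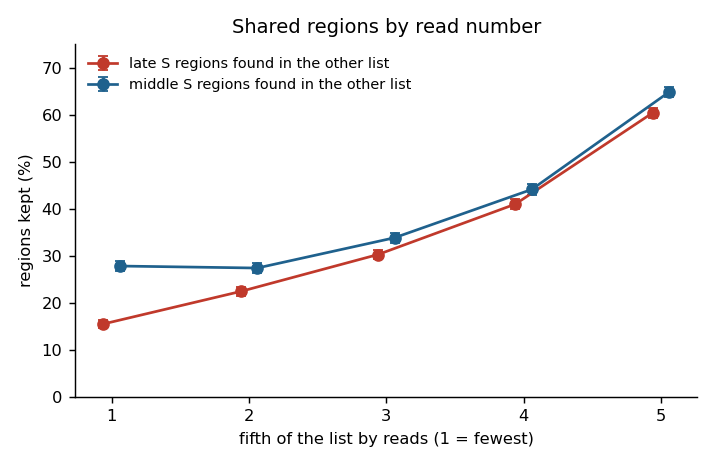
Share of regions kept (percent) in successive groups of 20% of the late S and of the middle S list, ordered by deposited reads; lines show exact 95% binomial intervals. The groups with most reads reach 60.4% in late S and 64.8% in middle S.

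Kept regions kept their order of strength only in part. Joined across the lists they formed 13882 overlap groups, 13132 of them made of 1 late S and 1 middle S region. Across these groups the log2 read counts of the fractions correlated with Pearson's r = 0.69 and the counts with Spearman's rho = 0.597, a description over groups that share 2 libraries and differ in width. Relative to the median group, 1401 groups (10.1%) had over 2-fold more reads in late S and 1577 (11.4%) over 2-fold fewer. By reads per kb the split turned to 1865 with more and 1327 with fewer. With at least 20 reads in each list, 6.19% of 6574 groups had over 2-fold more and 10.1% over 2-fold fewer. Over all groups the median was 54 reads in both lists together, and counting error was not separated from these differences. The SD of the log2 ratio was 0.62 among the 4627 groups with the fewest reads and 0.95 among the 4628 with the most. The first of these held 18 to 42 reads over both lists, where the lowest counts of the lists limit the ratio. The SDs therefore do not show that stronger regions varied more. Region width moved with the read ratio. The middle S region was the wider one in 67.5% of groups, and in the groups with over 2-fold fewer reads in late S the median log2 ratio of widths, late over middle S, was -2.25, against -0.58 over all groups. Its part in the read ratios was not tested.

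Start sites were met more often by the groups with relatively fewer late S reads, which were also wider. The median group spanned 1400 bp where late S was over 2-fold higher, 4000 bp where it was over 2-fold lower and 2200 bp over all. Late S nascent strands overlapped 36.7% of the groups over 2-fold higher in late S, 54.1% of those over 2-fold lower and 45.9% of all groups. For middle S nascent strands these shares were 38.5%, 59.2% and 49.1%. At the middle 200 bp of each group the differences were smaller. Late S nascent strands then met 30.3% of the higher, 38.8% of the lower and 37.6% of all groups, and middle S nascent strands 33.6%, 48.5% and 42.8%. Chromosomes 4, 13, 18 and X held 15.6% of the higher groups, 6.405% of the lower ones and 9.85% of all.

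Along the chromosomes, late S pMCM2 regions were relatively more frequent where start sites were sparse. Ratios of region numbers are given here as late over middle S, divided by the ratio of the list totals, so that 1 means the same share of both lists. In the 756 bins of 1 Mb with at most 10 early S nascent-strand regions there were 5877 late S and 3707 middle S regions, a ratio of 1.31. The ratio was 1.08 in bins with 11 to 20 start sites, 0.997 with 21 to 40, and 0.879 in the 575 bins with 41 or more. Bins ordered by late S nascent strands gave 1.296, 1.08, 0.988 and 0.910, and bins ordered by pMCM2 of HCT116, a colon carcinoma line, gave 1.399, 1.25, 1.11 and 0.954. When bins were ordered by the ratio of late to early S nascent strands, the 20% with relatively most late S start sites had a ratio of 1.19 and the 20% with fewest 0.944.

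Of 2235 bins with at least 10 regions in both lists together, 142 (6.35%) were over 2-fold higher and 37 (1.66%) over 2-fold lower in late S. Among the bins with at most 10 early S start sites, 12.7% were higher and 1.69% lower. Among those with 41 or more, 1.95% were higher and 2.12% lower. The higher bins held few regions, a median of 12 in both lists together against 29 over all bins compared. Counting only the 50% of each list with most reads gave 52 higher and 48 lower of 1368 bins, and equal list lengths gave 84 higher and 49 lower of 2068. The ratio in bins with at most 10 early S start sites was 1.37 in these upper 50% and 1.26 with equal list lengths. Bin by bin the lists were alike in density, with Pearson's r = 0.88 and Spearman's rho = 0.862 between late and middle S region numbers over the 2235 bins, which share copy number and mappability.

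**Figure D3:**
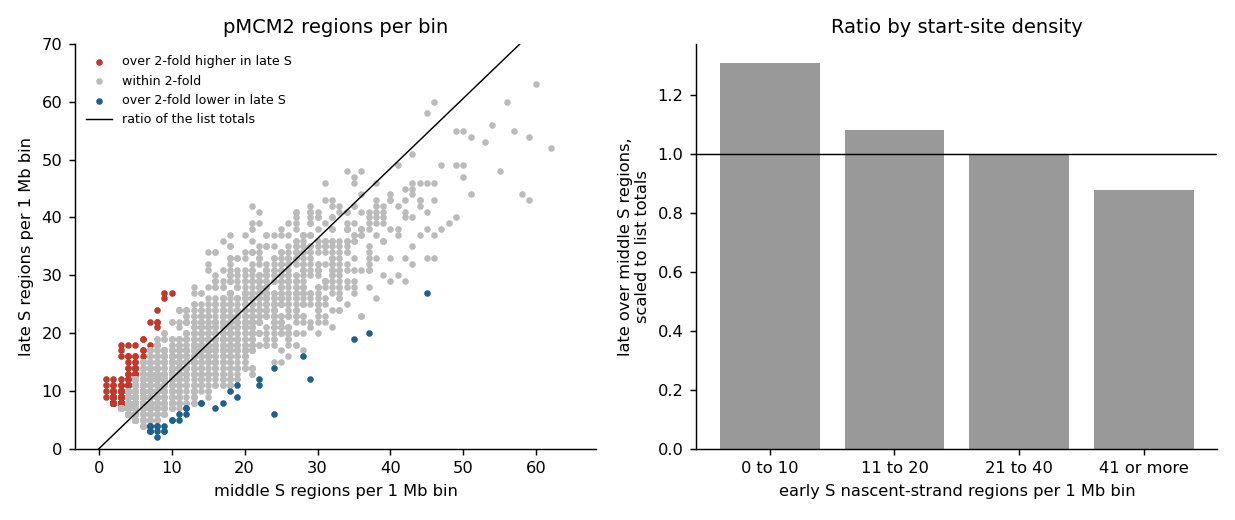
Left, pMCM2 regions per 1 Mb bin in late S (vertical) against middle S (horizontal) for 2235 bins, with the line of equal list shares; colours mark bins over 2-fold higher or lower in late S. Right, late over middle S region numbers scaled to list totals, by early S nascent-strand regions per bin; the bars fall below 1 only in bins with 21 or more, to 0.879.

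The bins with the highest ratios passed the limit of 10 regions almost only through late S. Their few middle S regions follow from that ranking and are no separate result. Bin 67 to 68 Mb of chromosome X held 12 late S regions and 1 middle S region. Bin 9 to 10 Mb of chromosome 20 held 11 late S regions and 1 middle S region, bin 69 to 70 Mb of chromosome 18 held 10 in late S and 1 in middle S, and bin 81 to 82 Mb of chromosome 2 held 9 in late S and 1 in middle S. The fifth was bin 231 to 232 Mb of chromosome 2, with 18 late S and 3 middle S regions. Nascent strands showed no common order in these 5 bins. Late S exceeded middle S on chromosome 20 (9 against 2 nascent-strand regions), on chromosome 18 (12 against 2) and at 81 to 82 Mb of chromosome 2 (23 against 5). Late S was below middle S on X (9 against 10) and at 231 to 232 Mb of chromosome 2 (19 against 23). Early S had 17 on chromosome 18, more than late S, and 19 at 81 to 82 Mb of chromosome 2. The lowest ratio was in bin 169 to 170 Mb of chromosome 2, with 6 late S and 24 middle S regions. That bin was rich in start sites at every stage, with 92 nascent-strand regions in early S and 96 at both later stages, and G2 had 56 pMCM2 regions there. Among bins with 40 or more regions, an extra limit set after seeing the data, the lowest was 10 to 11 Mb of chromosome 16 with 12 late S and 29 middle S regions. The highest of these was 177 to 178 Mb of chromosome 2, with 34 late S and 15 middle S regions.

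By chromosome, 3 of the 4 gene-poor chromosomes stood at the top. The ratio was 1.29 on chromosome 4, from 1231 late S and 788 middle S regions, 1.21 on X, from 1288 late S and 878 middle S regions, and 1.18 on chromosome 13, from 846 late S and 590 middle S regions. Chromosome 18, also gene-poor, did not share this, at 1.02. It had 28.1 early S nascent-strand regions per Mb, against 6.58 on chromosome 4, 8.26 on X and 7.58 on chromosome 13. Few start sites did not always go with a high ratio, since chromosome 15, with 9.29 per Mb, stood at 1.03 and chromosome 22, with 10.2 per Mb, at 0.984. The lowest ratios were 0.889 on chromosome 1, which had the most start sites per Mb (40.4), and 0.907 on chromosome 16. The gene-dense chromosomes 16, 17, 19 and 22 together stood at 0.963. In density, chromosome 19 led both lists, with 22.95 late S and 19.4 middle S regions per Mb, and chromosome 4 was last in both, with 6.44 in late S and 4.12 in middle S. On chromosome 4 there were 2.005 late-only regions for each middle-only region, against 1.33 in the genome and 1.099 on chromosome 1.

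**Figure D4:**
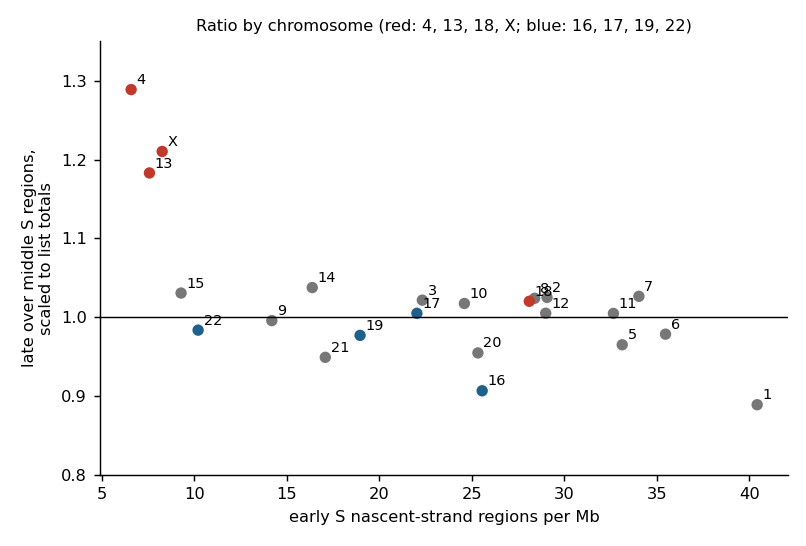
Late over middle S pMCM2 region numbers, scaled to list totals (vertical), against early S nascent-strand regions per Mb (horizontal), 1 point a chromosome. Chromosomes 4, X and 13 lie above 1.18 at under 9 start sites per Mb, and chromosome 1 is lowest at 0.889.

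All classes overlapped start sites more often than the share of the genome that start sites cover, and late-only regions did so least. Late S nascent strands overlapped 24.8% of late-only (24.3 to 25.3%) and 37.1% of middle-only regions (36.5 to 37.8%), against 43.5% of kept late S and 45.5% of kept middle S regions. Middle S nascent strands overlapped 25.6% of late-only and 39.5% of middle-only regions, against 47.5% of kept late S and 48.8% of kept middle S regions. Width differed between these classes and widens any overlap, so the middle 200 bp of each region were also compared. For late S nascent strands, which cover 6.41% of the span of the chromosomes, the shares became 22.1% of late-only and 30.04% of middle-only regions, 3.45 and 4.69 times that cover. For middle S nascent strands, which cover 5.98%, they became 23.4% of late-only and 33.6% of middle-only regions. Among regions of 200 to 600 bp, late S nascent strands overlapped 20.7% of 11294 late-only and 27.4% of 2940 middle-only regions. Among those of 2200 to 4000 bp it was 27.3% of 2452 late-only and 42.9% of 6168 middle-only regions, and from 4200 bp up 14.7% of 252 late-only and 43.4% of 1481 middle-only regions. The late-only share was thus the lower one at each width compared, with a wider gap from 2200 bp up than in the narrowest regions.

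Late-only regions did not lean to late S start sites over middle S ones. Middle S nascent strands overlapped more of them, by a small margin, as they did in every class. In the late-only class 2579 regions met late S nascent strands alone and 2787 met middle S nascent strands alone, a ratio of 0.925 (0.877 to 0.977). The ratio was 0.818 (0.774 to 0.865) for middle-only, 0.666 (0.617 to 0.718) for kept late S and 0.711 (0.658 to 0.767) for kept middle S regions. Relative to the other classes the late-only class was therefore nearest to an even split. The nascent-strand lists themselves were not even. They held 40310 late S regions absent from middle S and 26727 middle S regions absent from late S. All class ratios were under 1 although the lists held more late S sites of this kind. Start sites found in both nascent-strand lists gave the same order by reads. Relative to the median site, the log2 ratio of late to middle S nascent-strand reads had a median of -0.023 at 4297 sites touched by late-only regions alone, -0.079 at 5170 touched by middle-only regions alone, and -0.13 at 4412 touched by kept regions alone. It was 0.064 at the 24172 sites with no pMCM2 region of either fraction. These shifts were small beside the spread among sites, which ran from -0.45 to 0.36 between the quartiles for the late-only class.

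Seen from the start sites, few carried pMCM2 in either fraction. Of 81959 late S nascent-strand regions, 15.6% overlapped a late S and 17.3% a middle S pMCM2 region. Among the 40310 of them absent from middle S, 7.95% overlapped late S and 7.998% middle S pMCM2. Among the 41649 also found in middle S, 22.98% overlapped late S and 26.2% middle S pMCM2. Start sites of late S absent from middle S thus met the pMCM2 regions of both fractions about equally often. Late S pMCM2 covered less of the genome (1.65%) than middle S pMCM2 (2.49%). Of the 26727 middle S nascent-strand regions absent from late S, 13.2% overlapped late S and 14.5% middle S pMCM2. Late S pMCM2 thus met these more often than the late S ones absent from middle S. Their median widths were 2000 bp and 1800 bp.

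The other pMCM2 fractions separated the classes further. The middle 200 bp of late-only regions lay in G1 regions at 14.3%, in early S regions at 15.97% and in G2 regions at 32.4%. For middle-only regions the shares were 9.05% in G1, 12.5% in early S and 41.99% in G2. By their middles, late-only regions were thus more often found in G1 and early S, and middle-only regions more often in G2. Counting any overlap of whole regions, the early S shares were in the other order, 20.4% of late-only and 21.5% of middle-only regions. The cause of this turn was not tested. The G1 and G2 orders were the same for whole regions, at 16.2% of late-only and 12.5% of middle-only regions in G1 and 37.2% of late-only and 54.04% of middle-only regions in G2. Kept regions exceeded both classes everywhere: 42.5% of kept late S regions were in G1, 49.9% in early S and 76.1% in G2. The G2 list is the longest of the pMCM2 lists, with 82751 regions over 4.35% of the span.

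**Figure D5:**
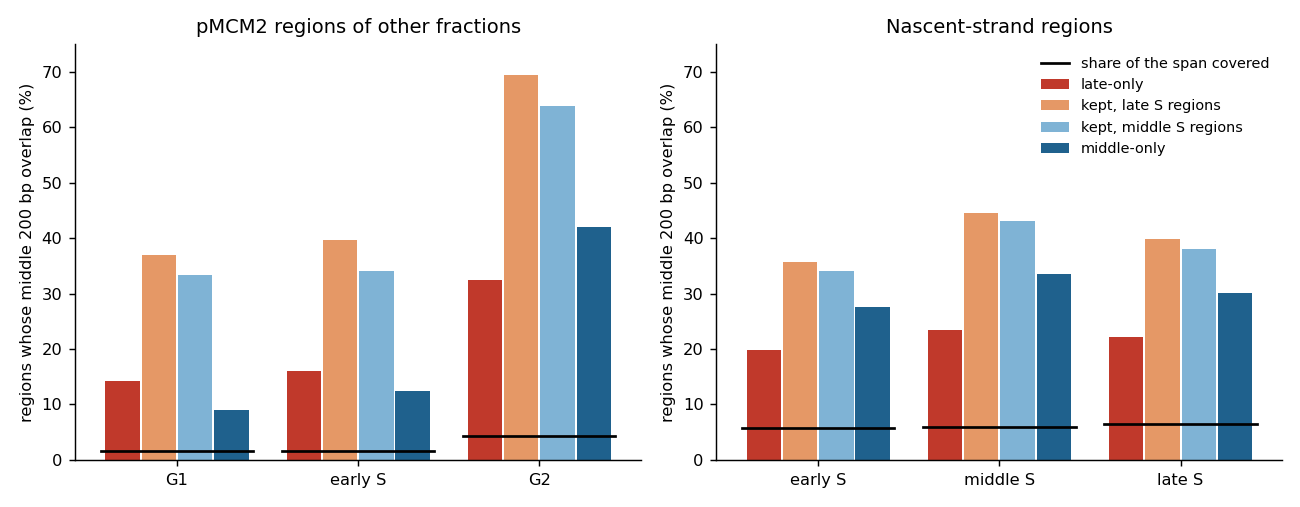
Share of regions (percent) whose middle 200 bp overlap pMCM2 regions of G1, early S and G2 (left) or nascent-strand regions of early, middle and late S (right), for late-only, kept late S, kept middle S and middle-only regions. Black lines give the share of the chromosome span that each list covers; late-only bars exceed middle-only bars in G1 and early S pMCM2 and lie below them elsewhere.

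Counted over whole regions, 28.3% of late-only and 28.8% of middle-only regions overlapped G1 or early S pMCM2. In G1 or early S and also in G2 were 12.6% of late-only and 18.8% of middle-only regions. Of the late-only regions, 937 (3.30%) were found in G1, early S and G2, that is in all fractions except middle S. Likewise 744 middle-only regions (3.47%) were found in all fractions except late S. Among kept late S regions 3418 (23.5%) were in all 5 fractions. In G2 but not in G1 or early S were 24.6% of late-only and 35.3% of middle-only regions. In none of the other fractions were 13364 late-only regions (47.1%) and 7700 middle-only regions (35.96%), against 10.2% of kept late S regions. These isolated regions had slightly fewer reads and met start sites less often. Their median count was 11 reads in the late-only and 20 in the middle-only class, against 12 and 23 in the whole classes. Late S nascent strands overlapped 18.5% of the isolated late-only and 25.5% of the isolated middle-only regions. For the late-only and middle-only regions found in some other fraction, that overlap was 30.5% and 43.6%.

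The deacetylase SIRT1 in its T530-phosphorylated form (pSIRT1) was mapped in the same fractions. Late S pSIRT1 overlapped 49.3% of late-only and 59.004% of middle-only regions, against 78.0% of kept late S regions. With the middle 200 bp these shares were 43.9% of late-only, 47.4% of middle-only and 71.7% of kept late S regions. Early S pSIRT1, a list of narrow regions that covers 0.757% of the span, met the middle of 10.005% of late-only and 5.496% of middle-only regions, and of 28.9% of kept late S regions. G1 and G2 pSIRT1 also met late-only middles more often than middle-only ones, at 25.6% of late-only against 23.9% of middle-only regions in G1 and 13.1% against 7.82% in G2. For whole regions the G1 order was the other one, 29.7% of late-only and 31.2% of middle-only regions. In HCT116 cells pMCM2 overlapped 42.2% of late-only and 51.5% of middle-only regions and 65.6% of kept late S regions. At the middle 200 bp, 33.3% of late-only and 34.4% of middle-only regions did so, nearly the same share.

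The strongest kept regions, 10 groups of 600 to 66400 bp, had counts far above the medians. The first lay at 49272401 to 49338800 of chromosome 4, with 6516 reads in late S and 10777 in middle S. Next came 105001 to 112600 of chromosome 18, with 5115 reads in late S and 8658 in middle S, and 2580001 to 2634400 of chromosome 1, with 3046 in late S and 5091 in middle S. Relative to the median kept group, these 3 differed between fractions by log2 ratios of -0.025, -0.059 and -0.041. Of the 10 strongest, 7 were present in all 5 pMCM2 fractions and 8 in the HCT116 pMCM2 list, while 1 overlapped middle or late S nascent strands. Of all kept late S regions, 23.5% were in all 5 fractions and 65.6% overlapped HCT116 pMCM2. Of all kept groups, 45.9% overlapped late S and 49.1% middle S nascent strands, at a median group width of 2200 bp. Width, which widens any overlap, was not matched. Their counts were not compared with genomic DNA here.

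Among unshared regions, chromosomes 9 and 22 came first. K562 carries extra copies of the BCR-ABL1 fusion, which joins parts of these chromosomes. Copy number was not tested here, and genes were not assigned to regions. The strongest middle-only region lay at 23234201 to 23287800 of chromosome 22 and held 3782 reads over 53600 bp. G1 had 366 and early S 539 reads in overlapping regions there, G2 had no region, and late S pSIRT1 counted 8853 reads. On chromosome 9 the stretch 133651601 to 133675200 followed with 651 middle S reads, where early S had 75 and G2 1294. Of the late-only regions, 133911401 to 133918800 of chromosome 9 counted most, 580 reads. No other K562 pMCM2 fraction had a region there, but late S pSIRT1 counted 7707 reads. At 19981401 to 19990400 of chromosome 22 late S had 554 reads, early S 352 and G2 2301. At 20183801 to 20193400 of chromosome 22 late S had 331 reads, G1 65 and early S 820. In all, 3 of the 10 strongest late-only and 3 of the 10 strongest middle-only regions lay on chromosomes 9 and 22. Of all 28396 late-only regions, 993 lay on chromosome 9 and 517 on chromosome 22. Of all 21414 middle-only regions, 748 lay on chromosome 9 and 401 on chromosome 22. The 10 were picked by unscaled reads.

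The segment of chromosome 22 from 22 to 25 Mb, chosen after its values were seen, shows how the list counts moved there. It makes up 0.0988% of the span. The G1 list had 0.284% of its reads there, in 32 regions, and the early S list 0.369%, in 73. The middle S list had 0.732%, in 46 regions, the late S list 0.359%, in 66, and the G2 list 0.330%, in 74. The middle S share was thus the highest by reads, but not by number of regions. The segment held 0.131% of the G1, 0.168% of the early S and 0.130% of the middle S regions. For late S it was 0.154% and for G2 0.0894%. The strongest middle-only region alone held 3782 of the 10167 middle S reads of the segment, and without regions overlapping it the shares were 0.307% in early S, 0.460% in middle S and 0.359% in late S. The lowest read ratio among kept groups with at least 20 reads in each list was also in this segment. At 22428001 to 22455200 late S had 32 reads in a region within the stretch and middle S 641, a centred log2 ratio of -3.62. The middle S region ran over all 27200 bp and the late S region over a small part of them. Per kb of called region late S was the higher one, so this ratio compares unlike widths. This stretch overlapped a region of very high nascent-strand counts, 9251 reads in late S and 9308 in middle S.

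Other single regions differed in the stages at which they were present. The 800 bp at 108297201 to 108298000 of chromosome X held 770 reads in G1, 686 in early S and 527 in late S, with no region in middle S or G2. The stretch at 85407001 to 85410600 of chromosome 16 held 57 reads in G1 and 152 in early S. There middle S had 332 reads, late S no region and G2 774 reads. At 89841801 to 89858000 of chromosome 2, middle S had 304 reads and G2 3592, and no other fraction had a region. Among kept groups with at least 20 reads in each list, 38420601 to 38426800 of chromosome 22 had the highest ratio (centred log2 ratio 2.62). It held 87 reads in late S and 23 in middle S. The late S region ran over all 6200 bp and the middle S region over a small part of them. Per kb of called region late S was the lower one. The second highest ratio belonged to 19092001 to 19093800 of chromosome 2, with 122 reads in late S and 34 in middle S (2.54). After the stretch of chromosome 22, the lowest ratio belonged to 931801 to 934200 of chromosome 7, with 20 reads in late S and 251 in middle S (-2.95), where G2 had 1152.

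Set beside the other steps of the cycle, the share of whole late S regions kept from middle S was level with the early to middle S step. Both stood above the remaining steps. As a share of the earlier list, the middle to late S step lay between the others. Neighbouring pairs share lists, so their values are only placed side by side. Of the later list, 26.3% was shared from G1 to early S, 33.9% both from early to middle S and from middle to late S, and 25.6% from late S to G2. Of the earlier list, 45.4%, 29.03%, 39.6% and 50.4% was found again. With the middle 200 bp, 30.5% of late S regions lay in the middle S list. For early S regions in the G1 list it was 23.2%, and for middle S regions in the early S list 21.02%. For G2 regions in the late S list it was 17.9%. The middle S list covered 2.49% of the span, the G1 list 1.58%, the early S list 1.63% and the late S list 1.65%. Relative to that cover the late S share was not the highest of these steps. From the earlier list the order was another one: 30.8% of G1 middles lay in the early S list, 26.2% of early S middles in the middle S list, 26.5% of middle S middles in the late S list and 44.95% of late S middles in the G2 list.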

How the data were processed

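The authors deposited 1 list of regions per library, with coordinates on hg19. MACS and SICER are the tools listed, with no version, per the submitters' processing notes. Per the labels, sheared genomic DNA of the same line was the control for peak calling. The sources used here do not name the aligner or thresholds. Units were inferred from values and layout. In 18 lists, including both compared here, the authors deposited a whole-number read count per region. The deposited values of the other 3 lists are scores per region and were not used as counts; of these, the middle S and G2 pSIRT1 lists served for overlaps only.

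Regions on chromosomes 1 to 22 and X were kept. Overlap needed 1 bp. Regions were placed in 1 Mb bins by their middles, 0.5 was added to both numbers, and bins with at least 10 regions were compared. Kept regions were joined into overlap groups, reads were summed per list, and log2 ratios were centred on their median; 2-fold was the limit for a call. The span of the genome, 3035 Mb, is the sum of the last region ends per chromosome over all lists. Named were the 10 unshared regions of each class with most reads and the 10 kept groups ranked highest in both lists. Also named were 5 kept groups with the highest and 5 with the lowest ratio, among groups with at least 20 reads in each list. The bins named were 5 at each end. The text gives some of each in full. The members and lists were chosen with earlier results of these data known. Planned gene lists, GC content and sequences were not analysed, because no annotation or genome of hg19 was used here. The 2 genomic DNA controls were not analysed here. The overlap and ratio steps were tested on simulated data. Python 3.11.15, numpy 2.4.6, pandas 2.3.3, scipy 1.17.1 and matplotlib 3.10.9 were used.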

Additional observations from a re-analysis of the deposited data

How the results depend on the processing

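No paired analysis was possible because each fraction had 1 library. Shared regions were also defined by an overlap of 50% of the shorter region, by a gap of at most 1 kb, in the upper 50% of each list by reads, with equal list lengths, after joining regions within 1 kb, and without chromosomes 4 and 1. In that order, the share of late S regions kept was 32.4, 36.3, 35.3, 37.8, 33.7 and 33.4%, and the share of middle S regions kept was 37.9, 42.3, 40.8, 36.6, 40.1 and 39.4%. Late-only regions numbered 14464 and middle-only regions 11009 in the upper 50%, which hold fewer regions by construction. The share with late S nascent strands in late-only minus that in middle-only regions, -12.3 percentage points, became -10.4 with 50% overlap, -14.9 in the upper 50%, -7.94 at the middle 200 bp and -6.67 in regions of 200 to 600 bp. For middle S nascent strands, -13.9 points became -11.9 with 50% overlap, -16.6 in the upper 50%, -13.0 with equal lengths, -10.2 at the middle 200 bp and -7.72 in narrow regions. For G2 pMCM2, -16.8 points became -15.5 with 50% overlap, -14.8 with equal lengths, -9.57 at the middle 200 bp and -13.3 in narrow regions. For early S pMCM2, -1.11 points turned to 2.29 in the upper 50%, 1.12 with equal lengths, 3.501 at the middle 200 bp and 2.94 in narrow regions; the cause was not tested. Bins over 2-fold higher, 142, of 2235 (6.35%), became 15 of 596 with 5 Mb bins (2.52%), 52 of 1368 in the upper 50% (3.801%), 84 of 2068 with equal lengths (4.06%) and 296 of 2235 by covered length (13.2%). Bins over 2-fold lower, 37 (1.66%), became 117 of 3026 with 500 kb bins (3.87%), 0 of 596 with 5 Mb bins, 48 of 1368 in the upper 50% (3.51%) and 75 by covered length (3.36%). With at least 20 reads in each list, 407 of 6574 kept groups were over 2-fold higher (6.19%, against 10.1% of 13882) and 665 lower (10.1%, against 11.4%). Alternatives chosen after seeing the data moved the ratio in start-site-poor bins, 1.31, to 1.37 in the upper 50% and 1.22 by reads, the ratio in bins with 41 or more start sites, 0.879, to 0.901 with equal lengths, and the ratio on chromosomes 4, 13, 18 and X, 1.17, to 1.25 in the upper 50%, 1.079 with equal lengths and 1.25 by covered length. Of 90 alternative values, 46 stayed within their interval or within 1.5 times their count, and 4 turned direction. Depth is unknown, so a region absent from a list may have been below its lowest count.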
